A study of Bubalus bubalis with 6 samples.

Results

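The genes described here are imprinted growth genes of buffalo muscle stem cells (MuSCs). The 10 symbols DLK1, PEG3, PEG10, MEST, NNAT, GRB10, PLAGL1, SGCE, NDN and H19 were looked up among 24616 listed genes, and 9 were found. H19, a maternally expressed long non-coding RNA, was not listed by symbol and was not analysed here. The rule that chose the symbols used no expression value, though earlier results of these data were known. Polyadenylated RNA had been sequenced from 3 GM samples, which are proliferating MuSCs in high-glucose DMEM with fetal bovine serum, and 3 DM samples, in which nearly confluent cells were moved to DMEM with horse serum and formed myotubes. The MuSCs came from the longissimus muscle of the buffalo fetus. The labels name no strain, age of the fetus or number of animals. The study's methods describe tissues of Chinese buffalo at a stated embryonic age, without saying whether the MuSCs came from the same animals. Its methods and results give different numbers of days in differentiation medium, so the day of the DM samples is not settled here. The labels do not say whether samples of a group were separate cultures, so p-values measure only the spread between these samples, which may be technical.

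An imprinted gene is transcribed mainly from the copy inherited from a single parent. In mammals most of the genes described here are transcribed from the father's copy, while H19 and, in most tissues, GRB10 are transcribed from the mother's copy. Many imprinted genes act on fetal growth, and they often lie in clusters that share a control region. In sheep, high muscle levels of DLK1 and its neighbour RTL1 accompany the heavy hindquarters of the callipyge phenotype. The counts used here do not separate the parental copies, so they give levels and not imprinting.

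The gene counts totalled 35615864 to 40305237 per sample, and 15576 genes with at least 10 counts over the 6 samples were tested. DM replicate 3 stood apart from the other DM samples. The chi-square of its counts against theirs, divided by the degrees of freedom, was 40.5 to 41.4, against 11.7 between DM replicates 1 and 2 and 6.22 to 10.6 between GM samples. Left out, that sample changed the call of no imprinted growth gene, with DLK1 at -3.10 and MEST at -1.61 on the log2 scale. Of 11 tested myogenic markers, 6 rose and 1 fell by more than 2-fold with an edgeR adjusted p under 0.05. By the same rule 8 of 8 proliferation markers fell, while over all genes 15.0% rose and 10.3% fell. At that adjusted p and any fold change, 7 myogenic markers were higher and 3 lower. Of 8 tested fibroblast markers, 7 rose by more than 2-fold at that adjusted p, and 8 were higher at any fold change. Beside collagen genes, the 7 included DCN (2.37 on the log2 scale), FAP (2.31), THY1 (1.55) and LUM (1.24). The listed fibroblast markers summed to 35351 to 36104 CPM (counts scaled to library size) in GM samples and 97686 to 123631 CPM in DM samples. The myogenic markers summed to 2896 to 3444 and 6011 to 8183 CPM. Most of the fibroblast sum came from collagen genes, as COL1A1, COL1A2 and COL3A1 had GM means of 15287, 10729 and 8298 CPM. TCF21 of the same list, which had too few counts to be tested, had 0, 1 and 7 counts in GM replicates 1 to 3 and 0 in each DM sample. Thus the sums do not measure the share of fibroblasts, and which cells made the collagen RNA was not tested. In such bulk samples fewer cells of a type and less RNA per cell cannot be told apart.

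The imprinted growth genes did not share a direction. A gene was called when edgeR's quasi-likelihood test gave an adjusted p under 0.05 and the fold change exceeded 2. With DM compared against GM, 2 of the 9 genes were called, and 25.3% of all tested genes were called. Both of these genes, DLK1 and MEST, fell, and 10.3% of all genes were called lower. A further 4 genes (PEG3, SGCE, NDN and PEG10) rose by less than 2-fold with an adjusted p under 0.05, and 31.6% of all genes were higher at that adjusted p. The 3 genes NNAT, GRB10 and PLAGL1 had an adjusted p of 0.05 or more, as had 37.0% of all genes. At an adjusted p under 0.05 and any fold change, 6 of the 9 genes passed, and 63.0% of all genes did. CPM values of GM and DM samples did not overlap for 7 of the 9 genes, and for 68.8% of all genes. The median log2 fold change was -0.01 over the 9 genes, with 4 above and 5 below 0, and 0.03 over all tested genes. These shares were close to those of all genes, so the counts are no result about imprinted growth genes as a set.

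**Figure D1:**
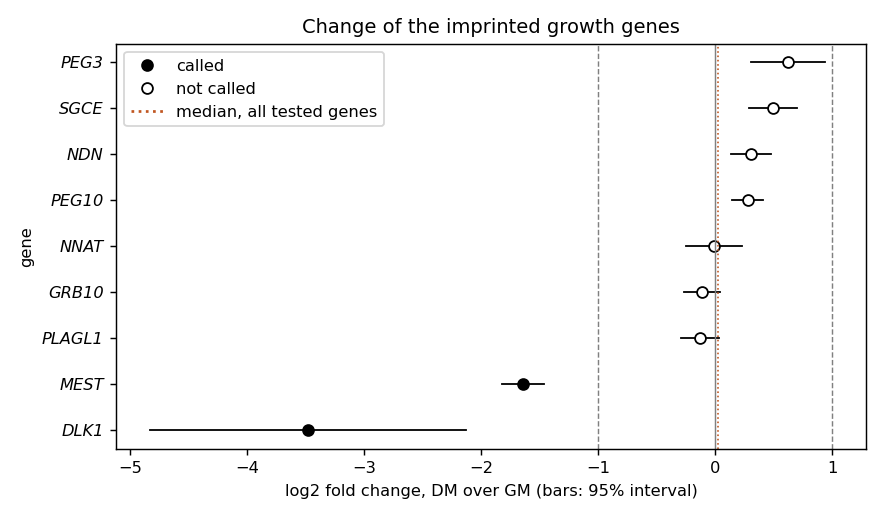
Log2 fold change of each imprinted growth gene, DM over GM, with 95% intervals as bars from edgeR. Filled points mark the called genes DLK1 (-3.48) and MEST (-1.64), dashed lines mark a fold change of 2, the dotted line is the median of all tested genes, and the other 7 genes lie between -0.13 and 0.62.

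DLK1 is a membrane protein of the Delta family, also known as preadipocyte factor, that lacks the part by which classical Delta ligands activate Notch. The gene (ENSBTAG00000037899) was listed on the plus strand at chr21:67274800-67283089. It had 60, 76 and 47 counts in GM replicates 1 to 3 and 11, 1 and 2 counts in DM replicates 1 to 3. Every GM sample lay above every DM sample, but the level was low in both groups. DLK1 fell from 1.24 to 1.83 CPM in the GM samples to 0.0273 to 0.326 CPM in the DM samples, and the mean CPM was 11.1-fold lower. Its log2 fold change was -3.48 (SE 0.61, 95% interval -4.83 to -2.13) with an edgeR adjusted p of 0.000509. DM replicate 1 held most of the remaining DM counts, and without that sample the log2 fold change was -5.09. On log2(RPKM + 1), where RPKM is the read count scaled by gene length and by sequencing depth, the change shrank to -0.99 in limma and missed the fold threshold.

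MEST encodes an alpha/beta hydrolase-fold protein of the endoplasmic reticulum, expressed in embryonic mesoderm and linked to the enlargement of fat cells. The gene (ENSBTAG00000017223) was listed at chr4:95066962-95079685 on the plus strand. It had 9554, 9211 and 10054 counts in the GM samples and 2513, 2977 and 2735 counts in the DM samples. The groups lay far apart compared with the differences among replicates. MEST fell 3.12-fold, from 239 ± 23.1 to 76.6 ± 4.16 CPM (SD, n = 3 each). The log2 fold change was -1.64 (SE 0.08, 95% interval -1.82 to -1.46) with an edgeR adjusted p of 4.98e-08. The miRNA gene bta-mir-335, which lies inside MEST on the same strand, had 3 counts over the 6 samples, and polyadenylated libraries are not made to recover mature miRNAs.

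The genes with the profile most like MEST were PRIM1, H2AFZ and CKS1B. Likeness was the root mean square distance between log2 CPM values centred over the 6 samples, among 12459 genes whose mean reached 1 CPM, and it was 0.0655, 0.0669 and 0.0732. PRIM1 encodes a DNA primase subunit, H2AFZ a histone variant and CKS1B a cyclin-dependent kinase subunit. The proliferation markers moved with MEST, with summed levels of 1614 to 1669 CPM in GM samples and 339 to 423 CPM in DM samples. Their part in the fall of MEST was not tested.

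PEG3 and PLAGL1 encode zinc finger proteins that bind DNA. PEG3 (ENSBTAG00000023338, chr18:64270787-64282112, minus strand) had 227, 247 and 183 counts in the GM samples and 291, 327 and 276 counts in the DM samples. Each DM sample lay above each GM sample. PEG3 rose from 5.41 ± 0.558 to 8.34 ± 0.777 CPM (SD, n = 3 each), a log2 fold change of 0.62 (SE 0.14, 95% interval 0.31 to 0.94) with an edgeR adjusted p of 0.00296. The interval of PEG3 overlapped that of SGCE, and on log2(RPKM + 1) PEG3 rose by 0.26 and SGCE by 0.38. The genes with the profile most like PEG3 were EPDR1, EDNRA and CDK5R1, at distances of 0.0262, 0.0498 and 0.0548 on the log2 scale.

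PLAGL1, also called ZAC1, is known for arresting the cell cycle and for acting on other imprinted genes. Its counts (ENSBTAG00000026523, chr9:82419235-82420458, minus strand) were 1360, 1370 and 1297 in the GM samples and 1079, 1053 and 1131 in the DM samples. Scaled to library size the groups lay close without overlapping, at 33.3 ± 0.781 and 30.4 ± 1.59 CPM (SD, n = 3 each). The log2 fold change was -0.13 (SE 0.07, 95% interval -0.29 to 0.03) with an edgeR adjusted p of 0.135. Scaling by library size alone gave -0.23 and an adjusted p of 0.0146, and over all alternatives the adjusted p ranged from 0.00720 to 0.404. The listed interval of PLAGL1 equals its length of 1224 bases, so the annotation used gives it a single block.

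GRB10 is an adaptor protein that binds the insulin and IGF1 receptors and dampens their signal. The gene (ENSBTAG00000017086, chr4:5104899-5244348, plus strand) had 5427, 5071 and 4362 counts in the GM samples and 3889, 3882 and 4395 counts in the DM samples. Its CPM values overlapped between the groups, with means of 123 ± 7.93 and 113 ± 6.54 CPM (SD, n = 3 each). The log2 fold change was -0.11 (SE 0.07, 95% interval -0.27 to 0.04) with an edgeR adjusted p of 0.187. The interval leaves room for a fall of up to 0.27 and a rise of up to 0.04 on the log2 scale. With library size alone the change was -0.21 with an adjusted p of 0.0214, within a range of 0.0214 to 0.557 over all alternatives.

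PEG10 and SGCE are divergent neighbours, with 266 bases between their listed intervals on chromosome 4. PEG10 derives from a retrotransposon and encodes Gag- and Pol-like proteins needed in the placenta, and SGCE encodes epsilon-sarcoglycan, a membrane protein of the dystrophin-associated complex. PEG10 (ENSBTAG00000038093, chr4:11912009-11921418, plus strand) had 301.8, 300.2 and 273.7 CPM in the GM samples and 348.1, 349.3 and 362.4 CPM in the DM samples. SGCE (ENSBTAG00000021282, chr4:11840470-11911742, minus strand) had 50.5, 46.3 and 46.0 CPM in the GM samples and 68.3, 74.2 and 58.3 CPM in the DM samples. Neither gene overlapped between the groups. PEG10 rose by a log2 fold change of 0.28 (SE 0.06, 95% interval 0.14 to 0.41) with an edgeR adjusted p of 0.00256. SGCE rose by 0.49 (SE 0.09, 95% interval 0.29 to 0.69) with an edgeR adjusted p of 0.000781.

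The ratio of the neighbours was compared within each sample to see whether they rose unequally. The log2 ratio of PEG10 RPKM to SGCE RPKM was 1.78, 1.89 and 1.77 in the GM samples and 1.55, 1.43 and 1.83 in the DM samples. DM replicate 3 lay within the range of the GM samples, while the other DM samples lay below it. The mean ratio differed by -0.21 on the log2 scale (exact two-sided permutation p = 0.3, with 0.1 the smallest p that 3 against 3 samples allow). A test of this size cannot reach 0.05, so it leaves the question of an unequal rise unanswered.

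NNAT and NDN are best known from the nervous system. NNAT encodes a small membrane proteolipid related to regulators of calcium pumps, and NDN encodes necdin, a MAGE family protein that binds E2F1 and restrains growth. NDN (ENSBTAG00000002186, chr21:736183-737792, plus strand) had 26.2, 24.1 and 23.4 CPM in the GM samples and 31.5, 29.9 and 29.7 CPM in the DM samples. The DM values were higher throughout and close to each other. NDN rose by a log2 fold change of 0.31 (SE 0.08, 95% interval 0.14 to 0.47) with an edgeR adjusted p of 0.00481.

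NNAT (ENSBTAG00000003212, chr13:67118490-67120879, plus strand) had 30.1, 32.2 and 31.3 CPM in the GM samples and 28.9, 27.3 and 36.7 CPM in the DM samples. DM replicate 3 was the highest sample and the other DM samples were the lowest. The log2 fold change was -0.01 (SE 0.11, 95% interval -0.25 to 0.23) with an edgeR adjusted p of 0.945. Leaving out DM replicate 3 gave -0.14, and leaving out DM replicate 2 gave 0.09. NNAT lies inside the listed interval of BLCAP, on the opposite strand. BLCAP was called, with a log2 fold change of 1.46. Whether counting used strand is not given in the sources used here, so reads of this overlap cannot be told apart.

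Levels of different genes were compared per length, as the deposited RPKM values. The order of genes therefore depends on the listed lengths, such as the single block of 1224 bases for PLAGL1, and whether those lengths are complete was not tested. In the GM samples MEST was highest at 113 ± 11.0 RPKM, followed by PEG10 at 94.4 ± 5.12 RPKM (SD, n = 3). GRB10 at 33.9 ± 2.24 RPKM came next, and PLAGL1, SGCE and NNAT followed at 28.2, 26.9 and 25.7 RPKM, where each overlapped its neighbour in the order. NDN had 15.8 ± 0.962 RPKM. DLK1 (1.18 ± 0.233 RPKM) and PEG3 (0.793 ± 0.081 RPKM) were far below the others.

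In the DM samples PEG10 led with 107 ± 3.33 RPKM. SGCE (35.3 ± 4.47 RPKM) and MEST (33.9 ± 2.35 RPKM) overlapped, and GRB10 had 29.3 ± 1.46 RPKM. PLAGL1 (24.0 RPKM) and NNAT (23.8 RPKM) also overlapped, and NDN had 18.2 ± 0.347 RPKM. PEG3 (1.14 ± 0.111 RPKM) lay above DLK1 (0.0984 ± 0.119 RPKM), so their order was opposite to that in the GM samples. MEST supplied 31.4 to 36.6% of the summed RPKM of the 9 genes in the GM samples and 11.9 to 13.3% in the DM samples. At the level of mRNA transcripts, 10 transcripts of the 9 genes were tested and 2 were called, again those of DLK1 and MEST, with 25.6% called among all mRNA transcripts. These transcripts share reads with their genes and add no independent evidence.

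**Figure D2:**
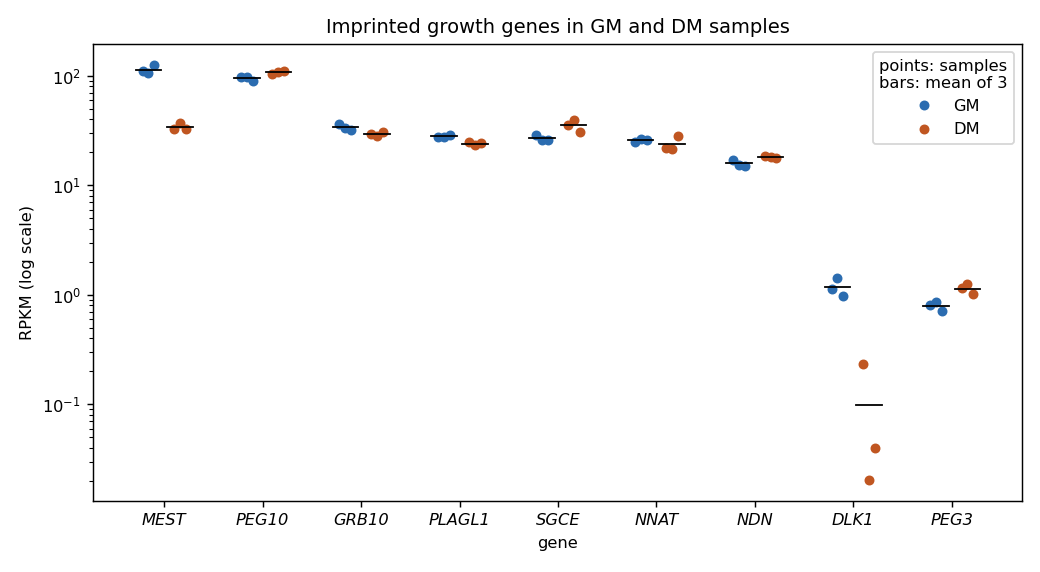
RPKM of the 9 imprinted growth genes on a log scale, with 1 point per sample and a bar at the mean of 3 samples in each group. MEST (113 RPKM in GM, 33.9 RPKM in DM) and DLK1 (1.18 and 0.0984 RPKM) separate most between the groups.

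The chromosome region of DLK1 was examined because it holds other imprinted genes. Within 500 kb of DLK1, 108 genes were listed and 20 were tested. Of these 12 were called higher, 9 of them non-coding genes, and BEGAIN alone was called lower. Over all genes 15.0% were called higher and 10.3% lower. The non-coding genes had few or no GM counts and could pass the filter through the DM samples alone, which limits what this count shows. BEGAIN, which lies 174.7 kb upstream and encodes a synaptic scaffold-associated protein, had 20, 35 and 23 counts in the GM samples and 3, 8 and 4 counts in the DM samples. Like DLK1 it fell, by a log2 fold change of -2.18 (SE 0.51) with an edgeR adjusted p of 0.00357. RTL1, a retrotransposon-derived gene downstream of DLK1 on the opposite strand, had 2, 0 and 5 counts in the GM samples and 62, 69 and 116 counts in the DM samples. RTL1 rose by a log2 fold change of 5.22 (SE 0.60) with an edgeR adjusted p of 2.29e-05. Thus counts in the intervals of neighbouring imprinted coding genes moved in opposite directions, down for DLK1 and BEGAIN and up for RTL1. The RTL1 interval overlaps 5 listed miRNA genes of the other strand, which had 3 counts in all. Those 3 counts do not cover the rest of the RTL1 interval. Reads of the strands cannot be told apart, so the strand behind the RTL1 counts is not known.

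**Figure D3:**
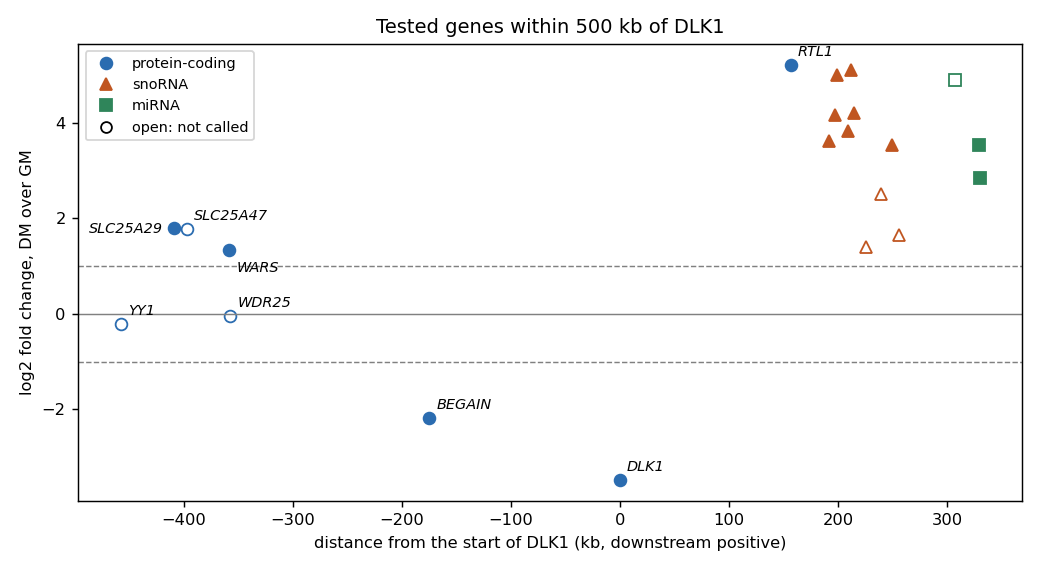
Log2 fold change, DM over GM, of each tested gene within 500 kb of DLK1, plotted against distance from the start of DLK1 in kb, with downstream positive. Filled points are called genes. DLK1 (-3.48) and BEGAIN (-2.18) lie below 0, while RTL1 (5.22) lies above.

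Non-coding genes of the same region were summed over every listed gene, because many had no counts in the GM samples and could pass the filter only through the DM samples. The region lists 101 such genes, 57 miRNA genes and 44 snoRNA genes, and 56 had a count. Their summed counts were 19, 12 and 13 in the GM samples and 120, 173 and 141 in the DM samples. All DM samples lay above all GM samples. The summed level was 0.363 ± 0.0866 CPM in GM and 4.03 ± 0.617 CPM in DM (SD, n = 3), which is 11.1-fold higher (exact two-sided permutation p = 0.1, the smallest possible). The sum was chosen after these counts were seen, so the separation of the groups and its p are a description. The 38 listed SNORD113 copies had 27 counts in the GM samples and 242 in the DM samples. SNORD113 is a multicopy family whose sequences were not compared here, and how the authors counted reads that fit several copies is not given in the sources used here. The miRNA genes had 15 and 179 counts. Polyadenylated libraries are not made to recover mature snoRNAs or miRNAs. These counts are therefore reads within the listed intervals and do not measure levels of the mature RNAs. In the deposited ncRNA table, 115 transcripts were listed within 500 kb of an imprinted growth gene, 101 of them near DLK1. The 13 that were tested all lie near DLK1, so the other imprinted growth genes cannot be compared. Of these 13 transcripts 9 were called, all of them higher, and 16.8% of all tested ncRNA transcripts were called in either direction. The filter limits what this count shows, and 5 were called without GM replicate 2, without DM replicate 2 or with a replicate block.

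**Figure D4:**
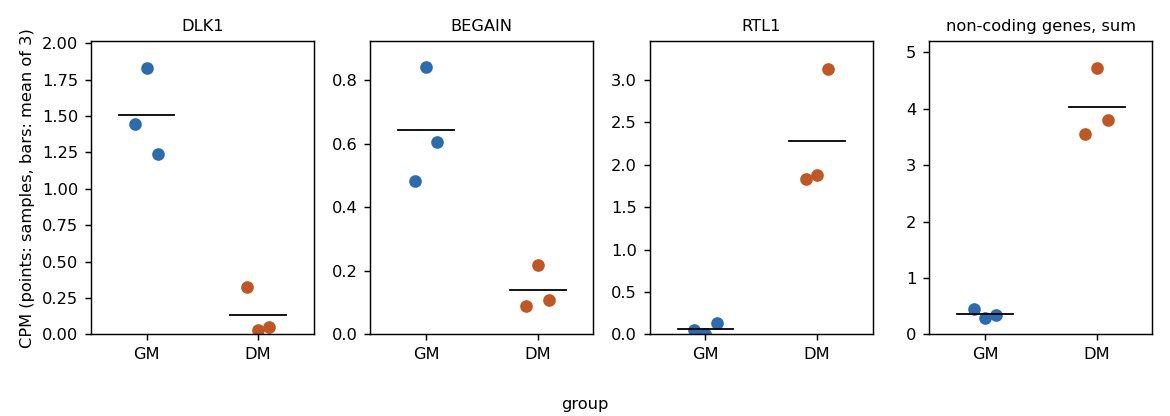
Level in CPM of DLK1, RTL1, BEGAIN and the summed non-coding genes within 500 kb of DLK1, with 1 point per sample. DLK1 was at 1.24 to 1.83 CPM in GM and 0.0273 to 0.326 CPM in DM, whereas the non-coding sum was at 0.288 to 0.458 CPM in GM and 3.55 to 4.73 CPM in DM.

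Other genes known to be imprinted in some mammal or tissue gave a wider background. Of a list of 33 symbols, 25 were listed and 21 tested, with 5 called higher and 1 called lower, where 15.0% and 10.3% of all genes were. These 6 of 21 genes are near the 25.3% called over all genes. The list also holds PLAGL2, a relative of PLAGL1 that is not established as imprinted. CDKN1C, an inhibitor of cyclin-dependent kinases, rose from 60.7 ± 12.5 to 293 ± 26.8 CPM (SD, n = 3), a log2 fold change of 2.27 with an edgeR adjusted p of 1.45e-07. SLC38A4, an amino acid transporter, and BLCAP rose by 1.98 and 1.46 on the log2 scale. ASB4, which lies in the PEG10 and SGCE cluster, had 2 counts in the GM samples and 319 in the DM samples, a ratio of 180 with a 95% counting interval of 49.3 to 1490. IGF2, the fetal growth factor, was not called at 1675 CPM in GM and 1885 ± 534 CPM in DM (edgeR adjusted p = 0.357). The median log2 fold change of the 21 genes was 0.59, against -0.01 for the imprinted growth genes. No test of this difference was made.

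**Figure D5:**
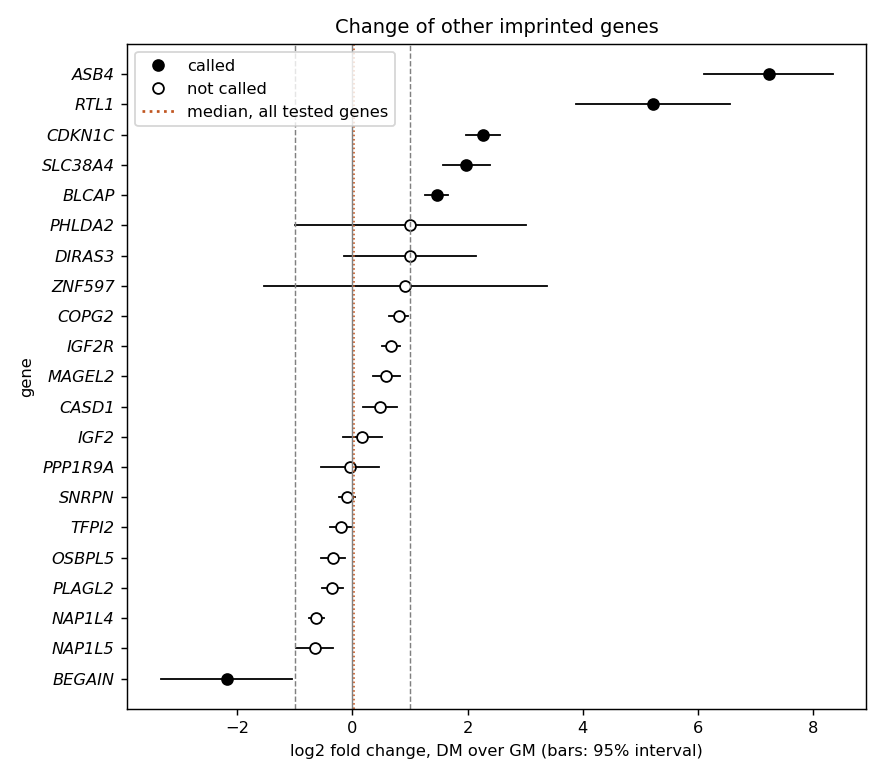
Log2 fold change, DM over GM, of the tested genes on the list of other imprinted genes, with 95% intervals from edgeR and filled points for called genes. RTL1 (5.22) and CDKN1C (2.27) lie above 0, and BEGAIN (-2.18) is the called gene below 0.

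Relatives and partners of the 9 genes were read from 8 lists, in which 55 genes were tested, 12 were called higher and 9 were called lower. Over all genes 15.0% were called higher and 10.3% lower. Of 8 tested partners of SGCE, 6 were called higher. Among them were SGCA (1.99 on the log2 scale) and SGCD (1.82), which encode muscle sarcoglycans, and SSPN (1.75) and SNTB1 (1.78) of the associated complex. Under the fold threshold, SGCB rose by 0.38, while DAG1, the dystroglycan gene, fell by 0.62 (edgeR adjusted p = 8.7e-05). SGCE itself rose by 0.49.

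Of 12 tested Delta and Notch genes related to DLK1, 1 was called higher and 4 lower, where 15.0% and 10.3% of all genes were. A positive log2 fold change was found for 6 and a negative one for 6. DLK2, the closest relative of DLK1, rose by 1.98 on the log2 scale. It overlaps ABCC10 on the opposite strand, which had 4283 counts, and reads of this overlap cannot be told apart. The receptor NOTCH1 (-1.37), the ligand DLL1 (-1.48) and the Notch targets HEY1 (-1.52) and HEYL (-1.25) fell. Under the fold threshold, the ligand JAG1 (0.83) and the receptors NOTCH2 (0.43) and NOTCH4 (0.45) rose, with edgeR adjusted p of 3.2e-06, 0.0022 and 0.046. The ligand JAG2 (-0.55) and the Notch target HES1 (-0.50) fell under that threshold, with edgeR adjusted p of 0.046 and 0.0030.

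The other lists were small, and their counts stand beside 25.3% called over all genes. Of 7 tested PLAG family members and PLAGL1 targets, 3 were called. The cell cycle inhibitors CDKN1A (2.31 on the log2 scale) and CDKN1C (2.27) rose, and PPARG (-3.73), a regulator of fat cells, fell. Of 9 tested adaptors and receptors around GRB10, 1 was called, the insulin receptor substrate IRS2 (1.31). At an adjusted p under 0.05 and any fold change, 2 of these 9 were higher. The 3 that were lower were IRS1 (-0.61), IGF1R (-0.43) and NEDD4 (-0.70). Of 4 tested genes around NNAT, 1 was called, the calcium pump ATP2A1 (4.38). Of 8 tested genes on the list around NDN, 2 were called, as the cell cycle transcription factors E2F1 (-2.19) and E2F4 (-1.02) fell. At an adjusted p under 0.05 and any fold change, 3 genes of the NDN list were higher and 4 lower. Of 5 tested partners of PEG3, the corepressor TRIM28 (-1.10) was called, while at an adjusted p under 0.05 and any fold 1 gene was higher, the ubiquitin ligase gene SIAH1 (0.66, edgeR adjusted p = 1.4e-05), and 3 were lower. Of the retrotransposon-derived relatives of PEG10, 2 were tested, and ARC (-2.49) fell while RTL1 (5.22) rose. PLAGL1, GRB10 and NNAT had log2 fold changes of -0.13, -0.11 and -0.01.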

How the data were processed

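Polyadenylated RNA of 3 GM and 3 DM samples was analysed. The count columns hold raw counts that the authors made with HISAT2 and an annotation and deposited without normalization in a gene, an mRNA and an ncRNA table. The RPKM values were computed by the authors from these counts and the deposited lengths. The study's methods name the buffalo genome, whereas the tables list cattle Ensembl identifiers and no build, and the submitters' processing notes list Bowtie 0.12.2, mm8 and mm9. Coordinates are given as deposited. Lists of differentially expressed features hold the authors' log2 fold changes, p-values and q-values and were not used.

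The quasi-likelihood test of edgeR 4.0.16 in R 4.3.3 was run with TMM scaling on features whose counts summed to 10 or more, and p-values were adjusted by Benjamini-Hochberg over each whole table. A call required an adjusted p under 0.05 together with a log2 fold change beyond 1 in size. Standard errors come from the F statistic. CPM was scaled by TMM. Ratios of counts of 3 or fewer have intervals that cover counting error only. On simulated data, 200 of 200 genes, 199 of 200 mRNAs and 200 of 200 ncRNAs changed 4-fold were recovered, with 2, 1 and 0 false calls. The changed features were drawn only from those with higher mean counts, and all features were given the same dispersion. Recovery of features with few counts, such as BEGAIN and the non-coding genes near DLK1, was therefore not tested. Ratios and sums were compared with exact permutation tests in Python 3.11.15 with scipy 1.17.1.

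The genes, lists and tests were chosen with earlier results of these data known. Named were each imprinted growth gene, called genes of the lists, the nearest tested and the most changed called neighbours, and the genes most alike in profile. The summed non-coding genes near DLK1 were chosen after counts were seen. The profile of DLK1, whose mean was under 1 CPM, was left out there. Alternatives were DESeq2 1.42.0, other scalings and filters, limma 3.58.1 on log2 RPKM, a replicate block and each sample left out. Some called genes of the lists are not reported here.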

Additional observations from a re-analysis of the deposited data

How the results depend on the processing

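MEST kept its direction and its call under the alternatives run, and DLK1 kept its direction but lost its call on log2(RPKM + 1). DLK1 and PEG3 could not be tested under the RPKM minimum of 1 in over 50% of samples. No called result reversed. The RPKM minimum left 2197 called genes in place of 3936, 1 imprinted growth gene in place of 2, 3 other imprinted genes in place of 6 and 8 neighbours in place of 24. With limma on log2(RPKM + 1) 2187 genes (1009 higher, 1178 lower, against 2330 and 1606), 1 imprinted growth gene and 15 neighbours were called. With no minimum fold change 9813 genes, 6 imprinted growth genes, 14 other imprinted genes, 47 neighbours, 43 in place of 21 relatives and partners and 6 in place of 2 mRNA transcripts were called. A window of 100 kb left 2 called neighbours. The changes with the RPKM minimum, the fold rule and the window follow from fewer or more genes qualifying, and the cause of those with limma was not tested. Leaving out each sample in turn gave 5 to 9 called ncRNA transcripts near the imprinted growth genes in place of 9, with 5 without GM replicate 2 and without DM replicate 2, and the cause was not tested.

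Replicate numbers are shared by the groups, and the labels do not say whether same-numbered samples were paired. Deviations of same-numbered samples had correlations of -0.0218 to -0.00756, and those of other pairs -0.0121 to 0.0238. With 3 samples per group such values cannot settle pairing. With a replicate block 3837 genes, 2 imprinted growth genes, 6 other imprinted genes, 23 neighbours and 5 ncRNA transcripts were called. With library size alone the median over all genes was -0.07 in place of 0.03 on the log2 scale. Depth limits DLK1, RTL1, BEGAIN, ASB4 and the non-coding genes, among others, since single samples held few or no counts.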

Other observations

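Genes beside the other imprinted growth genes were read from the same fit. Within 500 kb of the 9 genes, 69 neighbours were tested, with 18 called higher and 6 lower, or 34.8%, against 25.3% of all genes. Of these 24 genes 13 lie near DLK1, where non-coding genes could pass the filter through the DM samples alone, and 20 to 22 were called in all when single samples were left out. COL1A2, a collagen gene beside PEG10 and SGCE, rose by 1.13 on the log2 scale. COPG2, next to MEST, had a log2 fold change of 0.81 with an edgeR adjusted p of 4.46e-06, under the fold threshold, while MEST fell. CPA1, a carboxypeptidase gene near MEST, had 18 counts in GM and 2 in DM, a ratio of 7.99 with a 95% counting interval of 1.91 to 71.0. Beside NNAT, MROH8 fell by 2.07 on the log2 scale, while SRC (0.22) and CTNNBL1 (-0.60) stayed under the fold threshold. Beside GRB10, FIGNL1 fell by 1.76 on the log2 scale and the unnamed gene ENSBTAG00000023806 rose by 2.47. Beside PLAGL1, the fucosidase gene FUCA2 rose by 1.09. MAGEL2, the MAGE family neighbour of NDN, had a log2 fold change of 0.59 and was not called. The unnamed gene ENSBTAG00000048005 near PEG3 had 71 counts in GM and 1 in DM, a ratio of 63.0 with a 95% counting interval of 10.9 to 2523.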
